A study of Mus musculus with 18 samples.

Results

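The Toll-like receptor genes described here are Tlr1, Tlr2, Tlr3, Tlr4, Tlr6, Tlr7, Tlr8, Tlr9 and Tlr13, together with Unc93b1, whose product carries the receptors of the endosome to their place of work. They are 10 of the 55487 genes in the count table and were taken by name, not by any measured value. The choice was made with earlier results of these data known. Their transcripts were counted in 18 RNA sequencing libraries of cells flow-sorted from mouse retina. KO microglia (5 libraries) were living CD11b-positive cells of mice with the genotype Bmal1-mg/-mg, read here as loss of the circadian clock gene Bmal1 in microglia. WT microglia (4 libraries) were the same sorted population of Bmal1f/f mice, which carry floxed Bmal1 alleles. KO retina (5 libraries) and WT retina (4 libraries) were the living CD11b-negative cells of mice with these genotypes, and the dye DAPI marked dead cells in every sort. The Cre driver, and the sex, age and time of day of the mice, are not given in the sources used here. Separate mice behind the libraries of a group are not stated in the labels, so p-values here reflect how far these libraries differ within a group, which may be partly technical. CD11b is also carried by neutrophils, monocytes and border macrophages, and fewer cells of a type and less RNA per cell cannot be told apart in such bulk samples.

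Toll-like receptors recognise molecules of microbes and of damaged cells and signal through the adaptors MYD88 and TRIF to NF-kB and interferon regulatory factors. TLR1, TLR2, TLR4 and TLR6 sit on the cell surface and bind lipids and lipopeptides. TLR3, TLR7, TLR8, TLR9 and TLR13 sit in endosomes, where they bind nucleic acids, and they need the membrane protein UNC93B1 to get there. Microglia, the resident macrophages of the retina and brain, use these receptors to sense infection and injury.

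Libraries held between 32277156 and 47563119 counts, and 3 counts in 1 of them stood for 0.0631 to 0.0929 CPM (counts scaled to the size of the library). The sort was clear at the level of its markers, with 10 microglia genes summing to 41602 to 45539 CPM in KO microglia, 45848 to 53201 in WT microglia, 7.59 to 18.1 in KO retina and 12.7 to 17.5 in WT retina. Rod photoreceptor genes summed to 4981 to 11683 CPM in KO microglia and 6897 to 10069 CPM in WT microglia, so both sorts of microglia held rod RNA. Arntl, the gene symbol of Bmal1, had 8.52, 2.10, 19.8, 24.1 and 13.6 CPM in KO microglia and 21.8, 15.5, 9.89 and 26.9 CPM in WT microglia. These Arntl values overlapped, and a count over the whole gene does not check a deletion of part of it, so genotypes were taken as labelled. KO microglia libraries had counts for 17892 ± 488 genes and WT microglia libraries for 19029 ± 323 genes (mean ± SD, n = 5 and 4). In the retina fraction the order was the opposite, with 19235 ± 341 genes in KO and 17640 ± 1006 genes in WT libraries.

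In microglia the 10 genes spanned a wide range of levels on a scale that corrects for exon length (TPM), and the order was nearly the same in both genotypes. Unc93b1 stood first, with 3336 TPM in KO microglia and 3411 TPM in WT microglia. Tlr2 followed with 423 TPM in KO and 381 TPM in WT microglia, then Tlr13 with 215 and 226 TPM in KO and in WT microglia. Each of these ranges was separate from that of the next gene in both genotypes. In KO microglia the order went on with Tlr7 at 102 TPM, Tlr1 at 58.6, Tlr4 at 48.4, Tlr3 at 31.9 and Tlr6 at 23.9, and each of these ranges overlapped the next. WT microglia kept that order, with Tlr7 at 103 TPM, Tlr1 at 56.2, Tlr4 at 54.8, Tlr3 at 41.4 and Tlr6 at 24.3, and there only the ranges of Tlr1 and Tlr4 overlapped. The last places differed. Tlr8 and then Tlr9 closed the list in KO microglia, at 1.74 and 0.480 TPM, whereas Tlr9, at 5.70 TPM, stood above Tlr8, at 1.5 TPM, in WT microglia.

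**Figure D1:**
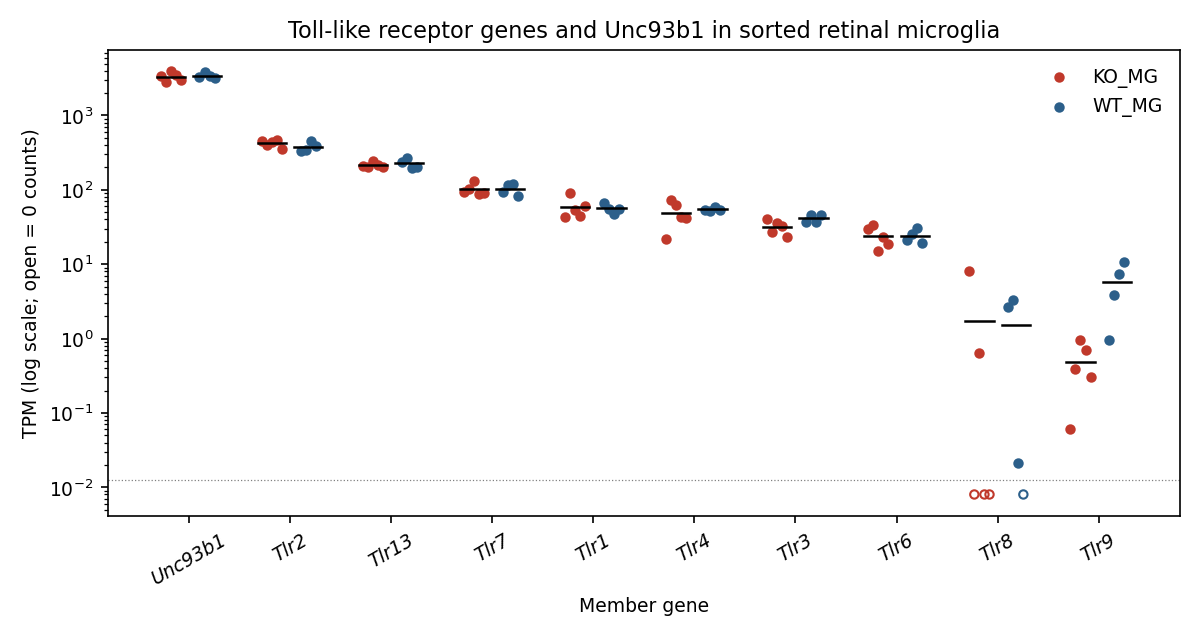
TPM of the 10 genes in each microglia library on a log scale, with KO microglia in red left of WT microglia in blue, a black bar at each group mean and open symbols for libraries with 0 counts. Unc93b1 has means of 3336 and 3411 TPM in KO and in WT microglia, the receptors from Tlr2 to Tlr6 have KO means between 23.9 and 423 TPM, and the genotypes separate most for Tlr9 at the right.

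No member passed the threshold between KO and WT microglia. With edgeR's quasi-likelihood test and a threshold of 0.05 on the Benjamini-Hochberg adjusted p, 0 of the 10 members were called, while 0.115% of the 14835 genes tested were called (17 genes). At an unadjusted p under 0.05 the count was 1 member, Tlr9. DESeq2 called 1 member, again Tlr9, and limma voom called 0. The log2 change was positive for 7 members and negative for 3, with a median of 0.05 beside -0.01 over all genes tested, and the genotypes overlapped in CPM for all 10, where 3.29% of all genes tested did not overlap. The 9 receptors together came to 905 ± 73.1 TPM in KO microglia and 894 ± 49.2 TPM in WT microglia (SD, n = 5 and 4).

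**Figure D2:**
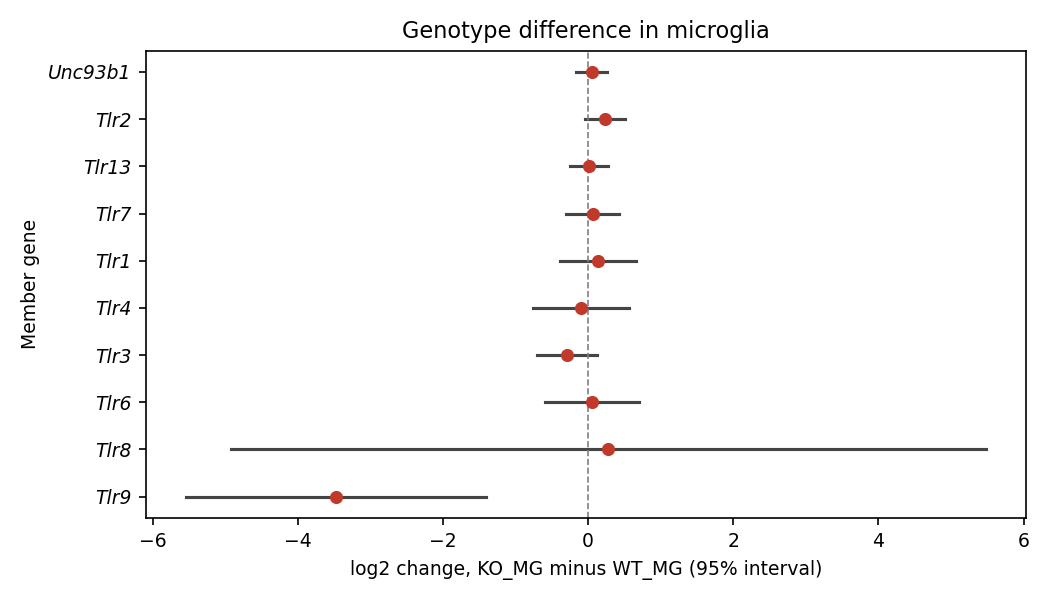
Log2 change in edgeR between KO microglia and WT microglia for each member, with its 95% interval, where values above 0 are higher in KO microglia. Unc93b1, Tlr2, Tlr13 and Tlr7 have short intervals that include 0, Tlr8 has the widest interval, and only the interval of Tlr9 lies wholly below 0.

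Of the surface receptors, Tlr2 was the most abundant. TLR2 pairs with TLR1 or TLR6 to bind bacterial lipopeptides. Tlr2 (ENSMUSG00000027995, chromosome 3, 83836272 to 83841767, minus strand, GRCm38) had 473, 423, 454, 496 and 371 CPM in KO microglia, against 340, 339, 456 and 373 CPM in WT microglia. KO libraries held the highest value and WT libraries the lowest, and the ranges overlapped. The log2 change was 0.23 (SE 0.12, 95% interval -0.04 to 0.51, edgeR unadjusted p = 0.0841, adjusted p = 0.902).

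Tlr1 (ENSMUSG00000044827, chromosome 5, 64924679 to 64933563) and Tlr6 (ENSMUSG00000051498, chromosome 5, 64952031 to 64960097) lie next to each other on the minus strand, with 18467 bases between them. They encode close paralogs, and reads from stretches they share could be split between them or lost in counting. Tlr1, the partner for triacylated lipopeptides, had 50.9, 107, 61.1, 52.9 and 69.6 CPM in KO microglia and 75.0, 61.3, 53.0 and 58.1 CPM in WT microglia. The highest and the lowest of these libraries were both KO, and the log2 change was 0.14 (SE 0.23, interval -0.39 to 0.67). Tlr6 had 38.3, 43.9, 18.8, 30.6 and 23.8 CPM in KO microglia and 26.2, 31.5, 38.4 and 23.0 CPM in WT microglia. The KO libraries again held both extremes, with a log2 change of 0.06 (SE 0.29, interval -0.59 to 0.71).

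BMAL1 binds DNA at the E-box CACGTG together with CLOCK, and PU.1, a transcription factor of microglia and other myeloid cells, binds sites of which GAGGAAGT is a common form, so both motifs were looked for on both strands in the 250 bases before each annotated start (RefSeq, GRCm38.p6). Windows were found for 7 of the 10 members, 9 windows in all, and Tlr1 was the 1 member that held either motif. Over all 32851 windows of this length, 6.02% held CACGTG and 2.44% held GAGGAAGT. The second start of Tlr1 lies downstream of its first, and 211 of the 250 bases before it are annotated exon of Tlr1. The E-box of Tlr1 began 195 bases before that second start. As the only match to the motif of the deleted factor among these windows, it is shown in capitals. Its neighbouring bases on the minus strand are printed with it (chr5:64932877-64932906).
Tlr1 E-box: ccggaaggcataCACGTGtccccatctctc
The PU.1 motif of Tlr1 began 23 bases before its first start (chr5:64933559-64933808, minus strand, motif in capitals).
Tlr1 window: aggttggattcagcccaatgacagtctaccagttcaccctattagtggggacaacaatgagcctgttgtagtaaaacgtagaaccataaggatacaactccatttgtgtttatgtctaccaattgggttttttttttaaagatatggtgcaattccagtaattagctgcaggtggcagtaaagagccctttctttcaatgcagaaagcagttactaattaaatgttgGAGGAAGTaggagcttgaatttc
A match describes these letters and was not measured as a binding site. The levels of Tlr1 in both genotypes are given above.

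Tlr4 (ENSMUSG00000039005, chromosome 4, 66827584 to 66930284, plus strand), the receptor for bacterial lipopolysaccharide, varied more among KO than among WT microglia. It had 42.2, 141, 119, 83.5 and 81.1 CPM in KO microglia, against 101, 94.1, 109 and 96.2 CPM in WT microglia. All 4 WT values lay inside the KO range. The log2 change was -0.10 (SE 0.29, interval -0.76 to 0.56), and without KO replicate 1, the lowest library, it was 0.09.

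Among the endosomal receptors, Tlr13, Tlr7 and Tlr3 were expressed in every microglia library and did not differ beyond the spread. Tlr13 (ENSMUSG00000033777, chromosome X, 106143204 to 106160493, plus strand), a mouse receptor for bacterial ribosomal RNA, had 315, 306, 360, 330 and 298 CPM in KO microglia and 341, 385, 279 and 277 CPM in WT microglia. The log2 change was 0.01 (SE 0.12, interval -0.25 to 0.27), the smallest in size among the members. Tlr7 (ENSMUSG00000044583, chromosome X, 167304929 to 167330558, minus strand), which binds single-stranded RNA, had 133, 149, 182, 127 and 130 CPM in KO microglia and 127, 159, 161 and 107 CPM in WT microglia. These ranges overlapped, with a log2 change of 0.06 (SE 0.16, interval -0.30 to 0.42).

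Tlr3 (ENSMUSG00000031639, chromosome 8, 45395665 to 45411080, minus strand) encodes the receptor for double-stranded RNA, the one member that signals through TRIF alone. It had 74.2, 48.9, 63.3, 60.6 and 41.4 CPM in KO microglia, against 64.0, 79.2, 64.4 and 75.1 CPM in WT microglia. All KO libraries but replicate 1 lay below the lowest WT library and replicate 1 lay among the WT values. The log2 change was -0.29 (SE 0.19, interval -0.71 to 0.12, edgeR unadjusted p = 0.147, adjusted p = 0.983). The antisense gene Gm45542 overlaps exons of Tlr3 and had at most 1 count in any library.

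Tlr8 (ENSMUSG00000040522, chromosome X, 167242696 to 167264329, minus strand), the neighbour of Tlr7 at a distance of 40599 bases, was present in some microglia libraries and missing from others. TLR8 binds products of single-stranded RNA in humans, and its ligands in mice are less settled. It had 405, 0, 30, 0 and 0 counts in KO microglia and 134, 152, 1 and 0 counts in WT microglia, or up to 10.1 CPM in KO and up to 3.92 CPM in WT libraries. Libraries with and without Tlr8 occurred in both genotypes, and the log2 change of 0.28 (SE 2.31, interval -4.92 to 5.48) gives no direction. Tlr8 was the 1 member without counts in all 9 microglia libraries.

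Tlr7, Tlr8 and Tlr13 lie on the X chromosome, and replicate 1 of each of the 4 groups had no count of the Y-linked genes Ddx3y, Eif2s3y, Kdm5d and Uty. Xist, the RNA of the inactive X, had 40.3 CPM in KO microglia replicate 1 and 42.0 CPM in WT microglia replicate 1, and at most 0.0516 CPM in the other microglia libraries. In the retina fraction replicate 1 had 12.5 CPM of Xist in KO and 0.0766 CPM in WT. Tlr7 and Tlr13 in the replicate 1 microglia libraries lay within the range of the other libraries of their genotype. Tlr8 had its highest KO value in KO replicate 1. Without replicate 1 of both groups, 0 members were called.

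Tlr9 (ENSMUSG00000045322, chromosome 9, 106222598 to 106226883, plus strand), the receptor for unmethylated CpG DNA, had the largest fold between genotypes. It had 3, 17, 43, 25 and 14 counts in KO microglia, against 46, 170, 337 and 437 counts in WT microglia. On the CPM scale these were 0.0749, 0.470, 1.13, 0.846 and 0.371 in KO microglia and 1.10, 4.39, 8.48 and 11.8 in WT microglia. Every KO library was low, and the highest KO library, replicate 3, just passed the lowest WT library, replicate 1. Replicate 1, without Y-linked counts, was the lowest library of its group in both genotypes. The ratio of summed counts per effective total was 0.0891, and the log2 change was -3.47 (SE 0.92, interval -5.54 to -1.41, edgeR unadjusted p = 0.00398, adjusted p = 0.375), which did not pass the threshold. The authors' deposited table gives a log2 change of -3.49 with an adjusted p of 0.313 for Tlr9. The adjusted p was 0.0101 in DESeq2 and ranged from 0.0101 to 0.756 over the alternatives run, and the log2 change kept its sign in all of them. With the Y-linked gene level as a covariate the log2 change was -3.46 (edgeR adjusted p = 0.134). Without replicate 1 of both groups, a choice made after seeing the data, it was -3.55 (edgeR adjusted p = 0.224).

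Values of other cell types are given beside Tlr9, since neutrophils and B cells also express it. A list of 5 neutrophil genes summed to 4.27, 0.0553, 4.79, 2.17 and 0 CPM in KO microglia and 0.0959, 81.4, 70.4 and 0.325 CPM in WT microglia. WT replicates 2 and 3, which had the highest neutrophil sums, had 4.39 and 8.48 CPM of Tlr9. WT replicate 4, the library with the most Tlr9, had a neutrophil sum of 0.325 CPM, with a count for 1 of the 5 genes. The part of the neutrophil list in the Tlr9 values was not tested. The 8 genes of monocytes and border macrophages summed to 451, 349, 636, 185 and 468 CPM in KO microglia and 508, 300, 40.2 and 72.1 CPM in WT microglia. Within WT microglia the libraries with the most Tlr9 were those with the lowest sums of this list, and its part in the Tlr9 values was not tested. The B-cell list summed to 678 to 875 CPM in KO microglia and 681 to 830 CPM in WT microglia. Most of that sum was Ighm, with 759 ± 81.5 CPM in KO and 736 ± 69.3 CPM in WT microglia, while Ms4a1, another B-cell gene, had 1 count in KO microglia and 1 count in WT microglia. The part of this list was not tested. The KO libraries also had counts for fewer genes, as given above, and the part of that difference was not tested.

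The 250 bases before the start of Tlr9 (chr9:106222348-106222597, plus strand) are shown because this member differed most, and neither motif occurs in them.
Tlr9 window: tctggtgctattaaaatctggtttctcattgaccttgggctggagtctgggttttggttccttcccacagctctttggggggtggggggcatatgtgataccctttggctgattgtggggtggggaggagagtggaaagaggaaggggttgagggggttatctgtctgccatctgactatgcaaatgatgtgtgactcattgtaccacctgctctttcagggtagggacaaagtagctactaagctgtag
The missing match says only that these letters are not in this window.

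Unc93b1 (ENSMUSG00000036908, chromosome 19, 3935186 to 3949340, plus strand) was the most abundant and among the steadiest of the members. It had 3591, 3022, 4029, 3745 and 3183 CPM in KO microglia, against 3289, 3796, 3381 and 3121 CPM in WT microglia. The ranges overlapped, and the log2 change was 0.05 (SE 0.09, interval -0.16 to 0.26). In TPM, Unc93b1 was 3.69 ± 0.36 times the sum of the 9 receptors in KO microglia and 3.82 ± 0.25 times in WT microglia. The 5 endosomal receptors made up 38.8 ± 2.38% of the receptor sum in KO microglia and 42.3 ± 4.69% in WT microglia (SD, n = 5 and 4). Both quantities overlapped between genotypes and were not tested. They cover only the receptors among the members, and Tlr12, a further receptor described below, is not in them.

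Outside the microglia fraction the family was nearly silent, with an exception in KO retina. Tlr1, Tlr2, Tlr7, Tlr8 and Tlr13 had 0 counts in all 9 retina libraries, and Tlr6 had 2 counts, both in WT retina replicate 2. A count of 0 allows up to 3 counts over a group, or 0.0143 CPM in KO retina and 0.0172 CPM in WT retina, as counting error alone. The 4 members with more than 3 retina counts were Tlr3, Unc93b1, Tlr4 and Tlr9, and nearly all of these counts were in KO libraries.

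Tlr3 had 0, 45, 117, 270 and 27 counts in KO retina, against 0, 1, 0 and 0 counts in WT retina. These were 0, 0.968, 2.98, 6.44 and 0.632 CPM in KO retina, while the 1 count in WT retina was 0.0280 CPM. Replicates 2 to 5 of KO retina stood above every WT library, and KO replicate 1 had none. The summed counts per effective total were 383 times higher in KO retina, with a 95% counting interval of 68.4 to 15163 that covers counting error only. Of the members, only Tlr3 passed the filter on low counts in this comparison, and it did so through the KO libraries. Its log2 change was 7.87 (SE 2.01, interval 3.35 to 12.38, edgeR unadjusted p = 0.00324, adjusted p = 0.0957). Thus 0 of the 10 members were called, where 1.66% of the 15332 genes tested were (255 genes), 205 of them higher. At an unadjusted p under 0.05 the count was 1, DESeq2 called 1 member, Tlr3, and limma voom 0. The adjusted p of Tlr3 ranged from 0.00146 with DESeq2 to 0.971 with the level of rod genes as a covariate. It was 0.0445 without KO retina replicate 1.

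Unc93b1 had 3, 192, 0, 136 and 137 counts in KO retina, against 2, 4, 1 and 2 counts in WT retina. KO replicates 2, 4 and 5 stood far above the rest and replicates 1 and 3 were like the WT libraries, with summed counts 43.4 times higher per effective total in KO retina. Without a filter its log2 change was 5.20 (SE 1.76, adjusted p = 0.300 in edgeR). Tlr4 had 0, 4, 0, 107 and 0 counts in KO retina and 0 counts in every WT retina library. That makes it at least 30.9-fold higher over the group in KO retina, almost wholly from KO replicate 4, a bound that covers counting error only. Without a filter the log2 change of Tlr4 was 7.48 (SE 3.03, adjusted p = 0.381 in edgeR). Tlr9 had 0, 0, 26, 0 and 2 counts in KO retina and 0, 1, 0 and 0 counts in WT retina. The ratio was 23.4, with a counting interval of 3.86 to 956, and it rests on KO replicate 3. Without a filter the log2 change of Tlr9 was 3.92 (SE 2.21, adjusted p = 0.412 in edgeR).

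**Figure D3:**
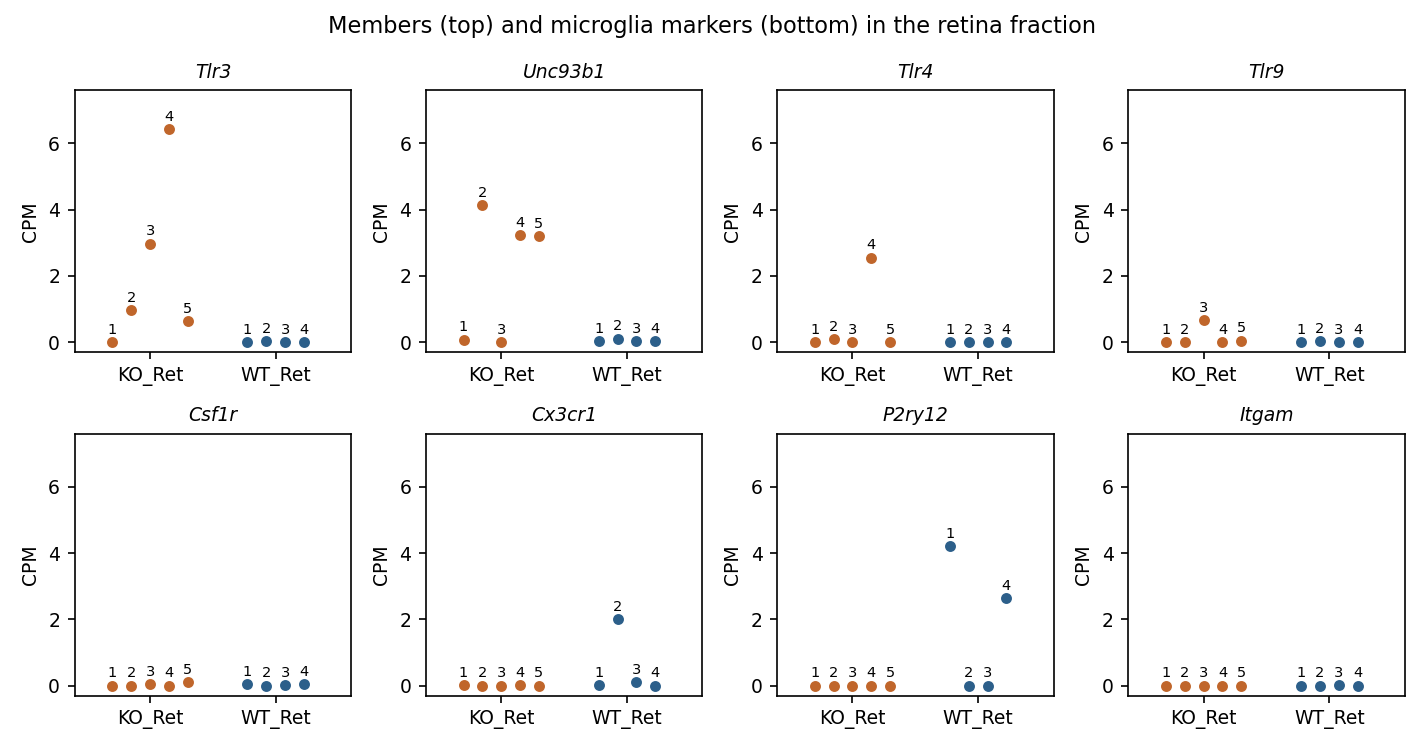
CPM in each library of the retina fraction for 4 members (top row) and 4 microglia markers (bottom row), with KO retina left of WT retina and the replicate number above each point. Tlr3 and Unc93b1 reach 6.44 and 4.13 CPM in KO libraries, where Csf1r, Cx3cr1, P2ry12 and Itgam are at or near 0.

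These counts stood beside few microglia transcripts. P2ry12 and Itgam, which encode a microglial purine receptor and CD11b itself, had 0 counts in all 5 KO retina libraries. Csf1r, the growth factor receptor of microglia, had 0, 0, 2, 0 and 5 counts in KO retina and 2, 0, 1 and 2 counts in WT retina, while it had at least 502018 counts in each KO microglia library. Cx3cr1, Tmem119 and Siglech had at most 1 count in any KO retina library. In WT retina, P2ry12 had 220 and 128 counts in replicates 1 and 4, Tmem119 had 262 in replicate 3 and Cx3cr1 had 72 in replicate 2. KO retina replicate 4, with 270 counts of Tlr3, 107 of Tlr4 and 136 of Unc93b1, had 0 counts of Csf1r. Lists of other cell types are given beside these counts. Genes of Mueller glia, the radial glia of the retina, summed to 826 to 1585 CPM in KO retina and 461 to 1213 CPM in WT retina. Rod genes summed to 112382 to 140921 CPM in KO and 138452 to 205692 CPM in WT retina. Endothelial genes summed to 23.0 to 69.3 CPM in KO and 8.73 to 30.9 CPM in WT retina. Of the retina libraries, KO replicate 4 had the highest Mueller glia and endothelial sums, 1585 and 69.3 CPM. It also had the lowest rod sum, 112382 CPM. The monocyte and border macrophage list summed to 16.3 to 19.0 CPM in KO and 0.224 to 5.00 CPM in WT retina, with F13a1, Cd163, Ms4a7 and Pf4 at 0 in every retina library. Most of that sum was Lyve1, a gene of border macrophages and lymphatic endothelium, which averaged 17.4 ± 1.13 CPM in KO and 2.27 ± 2.63 CPM in WT retina. The part of these cell types, and that of the larger number of genes with a count in KO retina, was not tested.

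Set against the retina fraction, microglia held almost all of the family's transcripts in both genotypes. In KO mice 8 of the 9 members that passed the filter were higher in microglia with edgeR, where 23.7% of the 15211 genes tested were higher, and the exception was Tlr9. In WT mice 9 of 9 were higher, where 22.8% of the 15188 genes tested were. The 9 passed through their microglia libraries, so these counts describe the sort and support nothing beyond it. With members at 0 in retina set to the floor of 3 counts, the median log2 difference was 11.08 in KO and 12.93 in WT mice, beside -0.10 and 0.02 over all genes.

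Tlr2 was at least 30845-fold higher in microglia in KO mice and at least 21963-fold higher in WT mice. For Tlr13 these bounds were 22457 in KO and 18708 in WT, for Tlr7 10123 and 8068, and for Tlr1 4774 and 3618. Tlr8 did not pass the filter, and its summed counts were at least 167-fold higher in KO microglia and at least 106-fold higher in WT microglia. For the 4 members with more than 3 retina counts the ratios of the genotypes stood further apart. Nearly all of their retina counts were in KO libraries, so this describes how they were set apart from the other members and is not a further result. The ratio for Unc93b1 was 1571 in KO and 66010 in WT mice, for Tlr4 it was 175 in KO and at least 5834 in WT mice, and for Tlr3 it was 26.4 in KO mice and 12321 in WT mice, the last on 1 retina count (interval 2211 to 486714). Tlr9 was 4.2 times higher in KO microglia than in KO retina, where the log2 difference was 1.93 (SE 1.37, adjusted p = 0.276 in edgeR), and 1102 times higher in WT microglia than in WT retina on 1 retina count (interval 197 to 43551). In KO mice limma voom called Tlr9 higher in microglia (adjusted p = 0.0303), and without KO retina replicate 3 its log2 change was 5.23 (edgeR adjusted p = 0.00754). The adjusted p of this difference ranged from 0.00754 to 0.413 over the alternatives run.

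**Figure D4:**
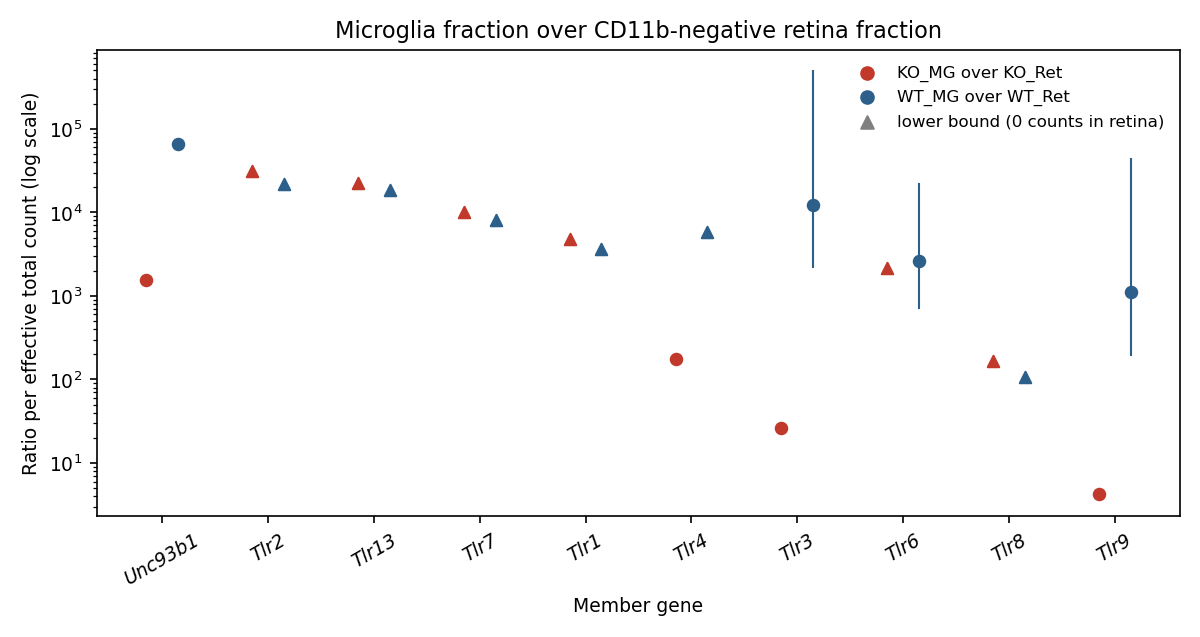
Ratio of summed counts per effective total between the microglia and the retina fraction on a log scale, in KO mice (red) left of WT mice (blue). Triangles are lower bounds where retina had 0 counts, and lines are 95% counting intervals where it had 1 to 3 counts. Receptors with 0 retina counts have bounds of similar size in both genotypes, while Unc93b1, Tlr4, Tlr3 and Tlr9 lie lower in KO mice.

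Whether the genotype difference itself differed between fractions was tested with an interaction over all 18 libraries, the KO minus WT change in microglia minus that in retina. Of the 10 members, all of which entered the fit, 1 was called, Tlr3, where 0.469% of the 18128 genes tested were called. Its log2 value was -8.24 (SE 1.62, interval -11.66 to -4.81, edgeR adjusted p = 0.0325). Within each fraction the log2 change of Tlr3 was -0.29 in microglia and 7.87 in retina, and neither was called on its own. It was lost in 9 of the 18 fits that left out 1 library, with adjusted p between 0.0530 and 0.0785 without KO microglia replicates 4 or 5, WT microglia replicates 2, 3 or 4, or any 1 WT retina library. It was also lost with limma voom, at an adjusted p of 0.130. The interaction of Unc93b1 was -5.23 (SE 1.36, adjusted p = 0.106), and it passed without KO retina replicate 1 or 3, at 0.0497 and 0.0195. Tlr9 had -7.42 (SE 2.26, adjusted p = 0.167) and Tlr4 had -7.51 (SE 2.7, adjusted p = 0.263). The other 6 members had at most 3 retina counts and gave no usable estimate. The 4 with an estimate have it through their counts in KO retina, so the count of 1 is not read against the share over all genes.

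The rest of the pathway was described from 52 genes of adaptors, kinases, co-receptors, trafficking, proteases, transcription factors, inhibitors and further receptors. In KO against WT microglia 0 of the 48 genes tested were called in edgeR, 2 had an unadjusted p under 0.05, and DESeq2 and limma voom called 0. Their median log2 change was 0.01, beside -0.01 over all genes tested. Cd14, the co-receptor that hands lipopolysaccharide to TLR4, averaged 718 ± 83.2 CPM in KO and 848 ± 49.4 CPM in WT microglia, with a log2 change of -0.24 (SE 0.09, adjusted p = 0.752). Traf6, the ubiquitin ligase downstream of MYD88, averaged 26.2 ± 8.67 CPM in KO and 47.5 ± 17.2 CPM in WT microglia, with -0.86 (SE 0.33, adjusted p = 0.763). Next by p came 2 genes of endosomal traffic, Ap3b1 with 105 ± 29.1 CPM in KO and 150 ± 33.5 in WT microglia, and Slc15a4 with 174 ± 17.1 in KO and 215 ± 45.4 in WT microglia. The 4 endosomal proteases that cut these receptors, Ctsb, Ctsl, Ctss and Lgmn, all had positive changes, with a median of 0.11, and none was called.

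In KO against WT retina 1 of 37 pathway genes tested was called, where 1.66% of all genes tested were, so that the count says nothing particular of the list. The gene was Traf3, the ligase that couples TRIF to interferon induction. Traf3 rose to 39.0 ± 16.5 CPM in KO retina, against 7.76 ± 0.91 CPM in WT retina (log2 change 2.30, SE 0.39, edgeR adjusted p = 0.0242). The call was lost with limma voom, with rod genes as a covariate, without KO retina replicate 1 or 2 or WT retina replicate 2 or 3, and without replicate 1 of both groups, which was chosen after seeing the data. Tnfaip3, an inhibitor of NF-kB signalling, had 352 ± 64.1 CPM in KO and 544 ± 88.4 CPM in WT retina (log2 change -0.67, adjusted p = 0.0864). Tollip, another inhibitor, had 172 ± 13.3 CPM in KO and 117 ± 20.2 CPM in WT retina (0.51, adjusted p = 0.0950), and Nfkb1 had 3.78 ± 2.28 CPM in KO and 0.286 ± 0.238 CPM in WT retina (3.67, adjusted p = 0.161). In the interaction 0 of 49 pathway genes were called in edgeR and 0 in limma voom, 9 had an unadjusted p under 0.05 and DESeq2 called 4. The smallest p values there belonged to Nfkb1 (-3.68, adjusted p = 0.0674), Traf3 (-2.15, adjusted p = 0.0943), Irf5 (-6.98, adjusted p = 0.162) and Irak4 (-6.56, adjusted p = 0.253). Irak4 averaged 0.219 ± 0.465 CPM in KO retina and 0 CPM in WT retina and did not pass the filter in that comparison. Its interaction value thus rests on few retina counts, and its log2 change in microglia was -0.42.

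Most of the pathway was also higher in the microglia fraction. In KO mice 30 of 48 genes tested were higher and 4 lower in microglia than in retina, where 23.7% of all genes tested were higher and 3221 of 15211 genes lower. In WT mice 33 of 47 were higher and 2 lower, where 22.8% of all genes were higher and 2642 of 15188 genes lower. A gene with few counts in retina could pass the filter only through its microglia libraries, so these counts are a description. The largest differences in WT mice were in Irf5, a transcription factor activated by TLR7 and TLR9, Ly86, a partner of the receptor relative CD180, Tlr12 and Ctss. They averaged 625 ± 69.1, 1023 ± 35.9, 106 ± 17.4 and 11373 CPM in WT microglia in that order, and all 4 averaged below 0.5 CPM in WT retina, where Tlr12 had 0 counts. The 2 genes lower in WT microglia were Sarm1, an adaptor relative enriched in neurons, with 25.5 CPM in WT microglia and 161 ± 28.1 CPM in WT retina (log2 change -2.7, edgeR adjusted p = 0.000429), and Tnfaip3, with 114 CPM in WT microglia and 544 ± 88.4 CPM in WT retina (log2 change -2.30). The smallest positive calls were Tbk1 (0.79) and Irf7 (0.93), a kinase and a transcription factor of interferon induction.

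Other genes followed single members closely over the 18 libraries. Likeness was the root mean square difference in log2 CPM after each gene was centred on its own mean, over 13918 candidate genes, and it mostly reflects the fraction difference that these genes share. Rac2, a GTPase of blood cells, lay nearest to Tlr13 at 0.14, Tifab nearest to Tlr2 at 0.16, Il16 nearest to Tlr7 at 0.16 and Pik3r6 nearest to Tlr1 at 0.20. Tlr6 was nearest to Naip5 at 0.33 and Tlr4 to Ppp1r3b at 0.56. Tlr3 and Unc93b1, the members with the most counts in KO retina, had more distant neighbours, Pxdc1 at 0.90 and Olfml3 at 1.14. Among members, Tlr2 and Tlr13 lay nearest to each other, at 0.26.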

How the data were processed

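Cells were sorted and sequenced by the authors from small amounts of RNA after amplification with a SMARTer Ultra Low kit, per the labels' protocols, so counts are not independent molecules. The authors deposited raw counts per gene for 18 libraries. For the 2 knockout comparisons they also deposited log2 fold changes, log2 mean CPM, a likelihood ratio score and p-values, per the file headers. STAR 2.7.9a, featureCounts, edgeR and limma and the build GRCm38 are named in the submitters' processing notes. Whether counting used strand is not given in the sources used here.

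The count table has 55774 lines, and dropping 287 with a repeated identifier left 55487 genes, with 0 unused sample columns. Groups follow the labelled genotype and fraction. The main test was glmQLFTest of edgeR 4.0.16 (R 4.3.3) on counts, with filterByExpr, TMM factors and Benjamini-Hochberg adjustment over all genes tested, at a threshold of 0.05. Each two-group comparison used its own libraries, the interaction all 18. The test was also tried on simulated data. SE is the log2 change over the root of F, and intervals use t quantiles. Levels are CPM with TMM factors of all 18 libraries, and TPM per union exon length in GENCODE M21. Bounds against a group with 0 counts take 3 counts as its sum.

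Named genes were all members, pathway genes past the threshold or with the 4 smallest p in a knockout comparison, the 4 highest and 4 lowest calls between WT fractions, checks and markers, and the nearest gene of each member with at least 10 CPM in microglia. Lyve1 was named after its values were seen. Some marker genes are not reported here. The members and lists were chosen with earlier results of these data known. Alternatives were DESeq2 1.42.0 and its size factors, limma 3.58.1 voom, other filters, the replicate number as a block, a fit over all 18 libraries, Y-linked or rod gene levels as covariates, and leaving out each library.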

Additional observations from a re-analysis of the deposited data

Results flagged for a closer look

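Within groups of 4 or 5 libraries, 3 member values lay far from the others of their group by Dixon's criterion. With normally distributed values chance meets it in about 1 group in 20. The groups of these 3 values held libraries with 0 counts, where that rate need not hold. Tlr4 had 2.55 CPM in KO retina replicate 4 and at most 0.0860 CPM in the other KO retina libraries. Tlr8 had 10.1 CPM in KO microglia replicate 1, and the next KO library had 0.785 CPM. Tlr9 had 0.662 CPM in KO retina replicate 3, and the next KO retina library had 0.0468 CPM. The genotype effect on Tlr3 differed between the fractions in edgeR, with an interaction log2 value of -8.24 (adjusted p = 0.0325), and the call was lost in 9 of 18 fits that left out 1 library and with limma voom (adjusted p = 0.130).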

How the results depend on the processing

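Few or no counts of the members limited their tests in retina, where total counts per library, 36675435 to 47563119, overlapped the 32277156 to 43096554 of microglia. Mean levels of all 10 members moved by less than 1 SD under other scalings. Between KO and WT microglia 17 genes were called, against 8 without a filter, 237 with DESeq2, 26 with voom, 32 in a fit over all 18 libraries and 4 without replicate 1 of both groups, a choice made after seeing the data. In that comparison DESeq2 called 1 member, Tlr9. Signs turned for members near 0, to -0.012 for Tlr13 with a filter of 1 CPM in 4 libraries, to -1.19 for Tlr8 with voom and -1.81 with the Y-linked covariate, and to 0.087 for Tlr4 and -0.085 for Tlr6 without replicate 1 of both groups. Leaving out 1 library gave 4 to 21 calls, and log2 ranges of -0.075 to 0.25 for Tlr1, -0.29 to 0.087 for Tlr4, -0.092 to 0.21 for Tlr6, -0.039 to 0.15 for Tlr7, -0.053 to 0.11 for Tlr13, -0.0051 to 0.11 for Unc93b1 and -0.12 to 1.01 for Tlr8. Between KO and WT retina 255 genes were called, against 120 without a filter, 1184 with DESeq2, 154 with the Y-linked covariate, 3 with the rod covariate, 116 without replicate 1 of both groups, and 96 to 342 when 1 library was left out. There DESeq2 called 1 member (Tlr3) and 4 pathway genes, and the fit over all 18 libraries 2 members (Tlr3 and Unc93b1) and 2 pathway genes. Voom, the rod covariate and leaving out replicate 1 of both groups gave 0 pathway genes, and leaving out 1 library gave 0 to 1 members and 0 to 2 pathway genes. The interaction had 85 calls, against 1090 with DESeq2 and 145 with voom, with 4 and 0 members and 4 and 0 pathway genes in that order, and leaving out 1 library gave 51 to 143 calls, 0 to 2 members and 0 to 2 pathway genes. Same-numbered libraries did not deviate together (correlations of -0.09 to 0.06), so the numbers were not taken as pairs. With the replicate block 2 genes were called in microglia, 0 genes and 0 pathway genes in retina, and 9 genes with 0 members in the interaction, where Tlr3 had an adjusted p of 0.465. The cause of these differences was not tested.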
